A study of Homo sapiens with 3 samples.

Results

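The vehicle tumor of the SUM-149 xenograft experiment was described from its own RNAseq library, across the 29689 gene symbols that the deposited table lists for it. It is 1 of 3 libraries in the series, and the counts over all genes use every symbol listed. SUM-149 is a human triple-negative breast cancer (TNBC) cell line that was established from an inflammatory breast carcinoma, and it is known as a BRCA1-mutant line. The tumors were orthotopic: the line was grown, with Matrigel as the carrier, at the mammary site of female Nu/Nu mice, a nude strain without a normal T cell compartment. The tumor described here came from a mock treated (vehicle) host, while the hosts of the other libraries received dinaciclib, a CDK2 inhibitor (CDK2i), or EPZ6438, an EZH2 inhibitor (EZH2i), for 10 days. Every vehicle value therefore comes from 1 library of 1 line, with no replicate, and no test was made. Stroma, vessels and blood in such a tumor are of mouse origin, and the values are relative to the human genome, so a mouse transcript counted only where its reads fell on a human gene. How much this added to any value was not tested. In a bulk sample, fewer cells of a type and less RNA per cell cannot be told apart.

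Levels are given as FPKM, the number of sequenced fragments per kilobase of gene length and per 1 M fragments of the library, so that they can be compared between genes. The steps between the values of weakly expressed genes gave a depth of about 16.8 M fragments (M, 1000000 fragments). A gene of 1 kb at 0.0596 FPKM thus stands for about 1 fragment. The ranges in brackets are exact Poisson 95% intervals of the fragment number on the FPKM scale, and they cover counting error only. For a gene listed at 0, the limit is the level that 3 fragments would give. Of the 29689 genes, 13476 (45.4%) were above 1 FPKM, 10360 lay between 0 and 1 FPKM, and 5853 (19.7%) were listed at 0. Among the 16909 symbols annotated as protein-coding, 11202 (66.3%) were above 1 FPKM and 1418 (8.39%) were at 0. The median level was 0.659 FPKM over all genes and 3.51 FPKM over protein-coding genes.

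**Figure D1:**
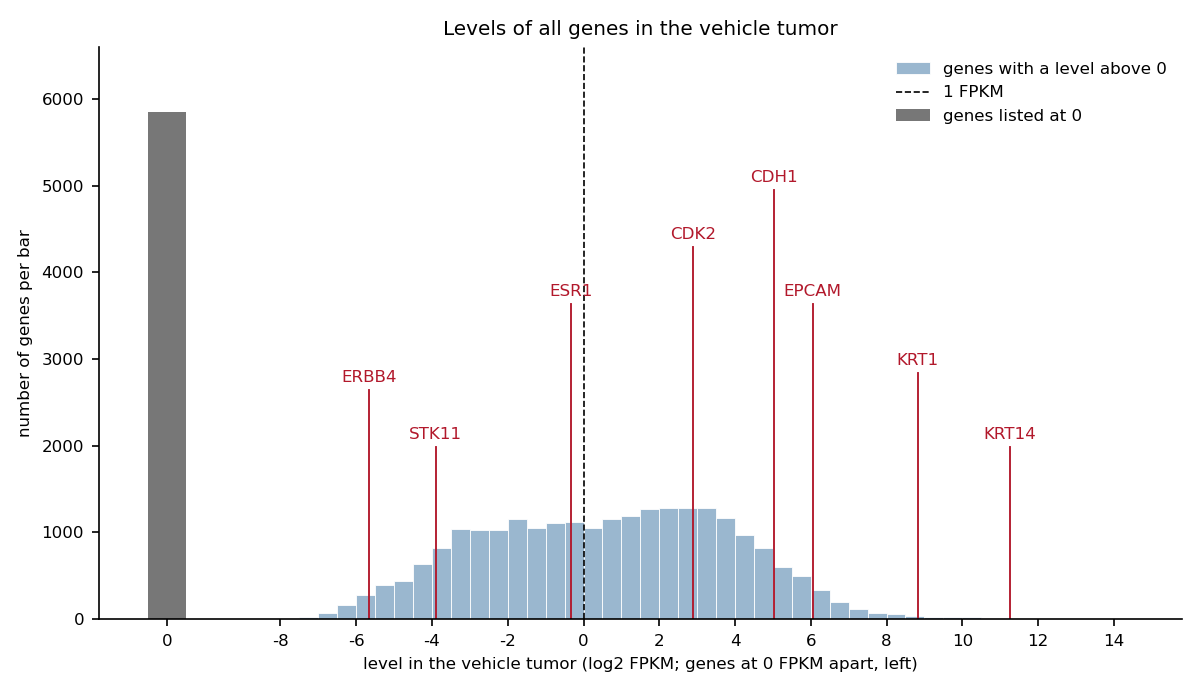
Number of genes (vertical axis) by level in the vehicle tumor (horizontal axis, log2 FPKM, bars of equal width), with the 5853 genes listed at 0 FPKM in the gray bar at left and a dashed line at 1 FPKM. Red lines mark KRT14 (2458 FPKM), KRT1 (452), EPCAM (66.3), CDH1 (32.6), CDK2 (7.38), ESR1 (0.792), STK11 (0.0671) and ERBB4 (0.0196), and their heights carry no value.

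The most abundant transcripts belonged to respiration, translation, the actin cytoskeleton and the keratin network. The 10 highest genes held 20.7% of the summed FPKM and the 100 highest held 45.8%. Of the 10 highest, 9 were encoded by mitochondrial DNA, led by the cytochrome c oxidase subunits MT-CO3 at 17743 FPKM, MT-CO2 at 16728 FPKM and MT-CO1 at 16248 FPKM. The 13 mitochondrially encoded genes took 21.6% of the summed FPKM, and the 82 ribosomal protein genes took 15.4%. RPS6 (5943 FPKM), RPS18 (4758 FPKM) and RPL8 (3764 FPKM) led the ribosomal proteins, of which 78 were above 1 FPKM.

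Outside these groups and small noncoding RNAs, TMSB10, which encodes an actin-binding thymosin, was the highest gene at 3843 FPKM (3799 to 3887). PI3, which encodes elafin, a secreted inhibitor of neutrophil elastase, followed at 2630 FPKM (2597 to 2664). ACTG1, which encodes cytoplasmic γ-actin, was at 2623 FPKM, and its counting interval overlapped that of PI3. KRT14, the keratin of basal epithelial cells, was the next gene at 2458 FPKM (2439 to 2476). Behind it came TPT1 (2129 FPKM), KRT5 (1873 FPKM), the elongation factor EEF1A1 (1629 FPKM) and the glycolytic enzyme ENO1 (1609 FPKM). Thus 2 keratins and 1 secreted protease inhibitor ranked among genes that serve translation, glycolysis and the cytoskeleton in every cell.

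The remaining genes of the highest 25 fell into the same classes. GAPDH (1352 FPKM) and PKM (962 FPKM) encode glycolytic enzymes, and EEF2 (1041 FPKM) and GNB2L1 (801 FPKM), the older symbol of the ribosome-bound RACK1, serve translation. ACTB (938 FPKM), TMSB4X (837 FPKM) and PTMA (956 FPKM) are abundant in most cell types. Epithelial genes made up the rest: KRT6A (1236 FPKM), KRT19 (1144 FPKM), KRT81 (1054 FPKM), S100A9 (1092 FPKM), S100A2 (1042 FPKM), S100A6 (820 FPKM), the gap junction gene GJB2 (895 FPKM), which encodes connexin 26, and SFN (819 FPKM), which encodes 14-3-3σ. MTATP6P1 (1585 FPKM) and MTND1P23 (1248 FPKM) are nuclear pseudogene copies of mitochondrial genes, and reads from near-identical copies could have been shared between them and the mitochondrial genome. The same holds for the microRNA symbol hsa-mir-6723, which was listed at 1934 FPKM and was not matched to the annotation.

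Keratins are the intermediate filament proteins of epithelia, and they are built as pairs of a type I and a type II chain. Basal cells of stratified epithelia and of the mammary gland carry KRT5 and KRT14, simple and luminal epithelia carry KRT8, KRT18, KRT19 and KRT7, and the KRT6 and KRT16 genes are known for activated epidermis. KRT1 and KRT10 mark epidermal cells that have left the basal layer, and the hair keratins build the hair shaft. In the vehicle tumor, genes of the basal, activation, simple and suprabasal classes were all abundant. Of the 51 numbered keratin genes in the table, 27 (52.9%) were above 1 FPKM, against 66.3% of all protein-coding genes. Of the same 51, 12 were above 100 FPKM and 3 were listed at 0. The family held 2.47% of the summed FPKM, and 8 keratins stood among the 100 highest genes.

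Of the summed keratin FPKM, 42.2% came from the 4 basal keratins and 23.8% from the 4 barrier activation keratins. The simple keratins gave 16.1%, the hair keratins 8.996% and the suprabasal keratins 8.64%. KRT14 (chromosome 17 of GRCh37, 39738531 to 39743147) and KRT5 (chromosome 12, 52908359 to 52914314) together made up 36.6%. The type I chain KRT14 was listed above its type II partner KRT5, which was at 1873 FPKM (1859 to 1887). In estimated fragments the order was reversed, at about 67488 for KRT14 and 70356 for KRT5, so it depends on the gene lengths used. KRT17 was at 620 FPKM and KRT15, known from basal stem cells, at 38.9 FPKM.

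KRT19 (1144 FPKM) and KRT7 (567 FPKM) led the simple keratins. KRT8 reached 169 FPKM and its partner KRT18 29.6 FPKM, while KRT20, a keratin of the gut and the urothelium, was at 0.0343 FPKM. The activation keratins were KRT6A at 1236 FPKM, KRT16 at 778 FPKM, KRT6B at 745 FPKM and KRT6C at 61.1 FPKM. KRT6A, KRT6B and KRT6C are near-identical, as are stretches of KRT14, KRT16 and KRT17, so the split of reads among these genes is uncertain. Among the suprabasal keratins, KRT10 (507 FPKM, 500 to 514) and KRT1 (452 FPKM, 446 to 459) stood far above KRT77 (29.6 FPKM) and KRT80 (18.5 FPKM). KRT2, the keratin of the upper epidermis, was at 0.768 FPKM, and the corneal keratin KRT12 was at 0.0319 FPKM.

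The hair keratins were low apart from a neighboring pair on chromosome 12. KRT81 was at 1054 FPKM (1043 to 1065) and KRT86 at 6.58 FPKM. KRT83, the next in order, was at 0.667 FPKM, and the other 13 of 16 hair keratins lay below it, with KRT33A and KRT36 listed at 0. KRT81, KRT83 and KRT86 are close copies, and the division of reads between them is uncertain. Of the 10 keratins of the hair root sheath and others in the table, KRT79 (9.68 FPKM), KRT23 (8.81 FPKM) and KRT75 (3.28 FPKM) were highest, and KRT24 was at 0.

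**Figure D2:**
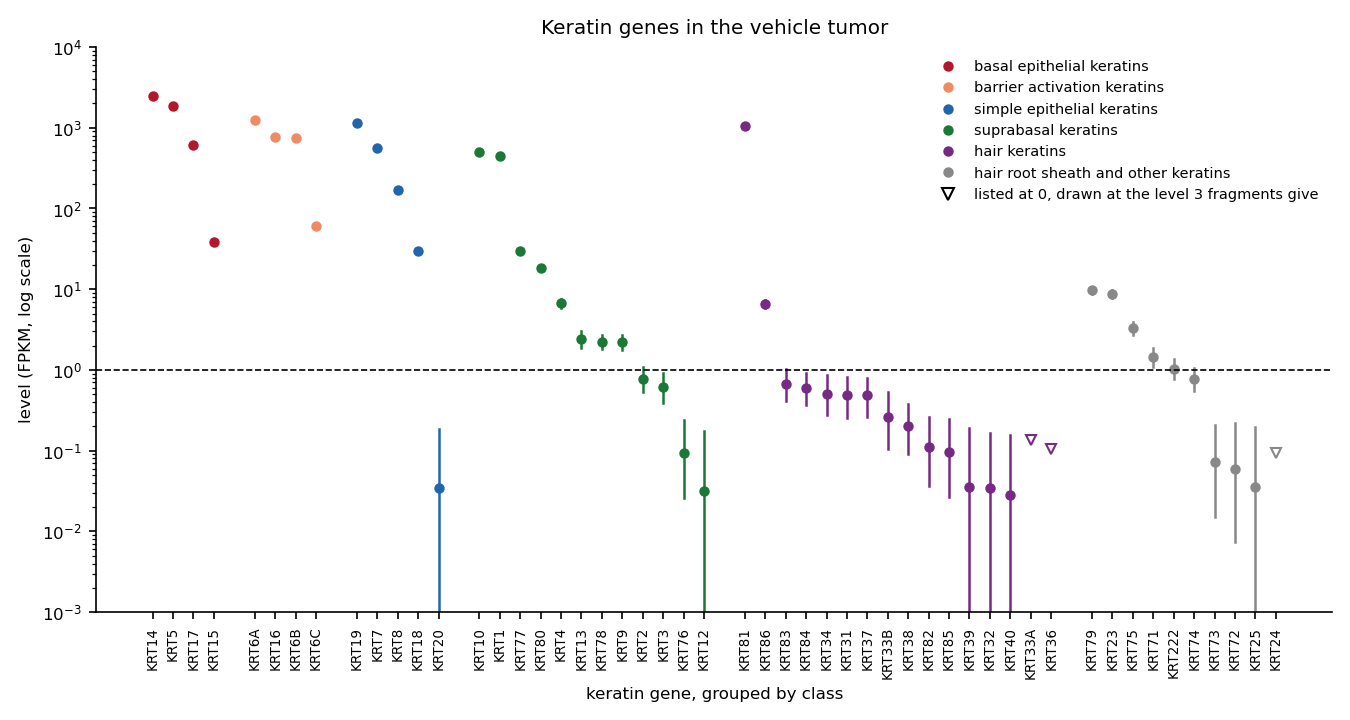
Levels of the keratin genes in the vehicle tumor (vertical axis, FPKM, log scale), grouped by class along the horizontal axis and ordered by level within a class. Circles are FPKM values, vertical lines exact Poisson 95% intervals cut at 0.001 FPKM (hidden by the circle at high levels), open triangles genes listed at 0, and the dashed line marks 1 FPKM; KRT81 at 1054 FPKM stands apart from the other hair keratins, which reach 6.58 FPKM at most.

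The 150 bases before the start sites of KRT10 and S100A9, which are abundant, and of MTAP and STK11, which are near silent, are shown because they hold the sequence signals that promoters are known for. These genes were picked after their levels and sequences had been seen. The TATA box, a binding site of the general transcription machinery just upstream of a start site, is frequent in genes of differentiated tissues, while start sites rich in the dinucleotide CpG are typical of broadly expressed genes. The sequences are from RefSeq on GRCh38.p14, written 5′ to 3′ on the strand of the gene and ending at the base before the start. KRT10 (507 FPKM) lies on the minus strand at chr17:40822615-40822764, and S100A9 (1092 FPKM) on the plus strand at chr1:153357704-153357853. Capitals mark TATAAA, whose first base lies at position -29 from the start in both.
KRT10: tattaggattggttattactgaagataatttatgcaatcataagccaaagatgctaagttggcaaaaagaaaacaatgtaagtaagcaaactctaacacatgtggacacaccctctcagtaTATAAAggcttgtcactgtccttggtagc
S100A9: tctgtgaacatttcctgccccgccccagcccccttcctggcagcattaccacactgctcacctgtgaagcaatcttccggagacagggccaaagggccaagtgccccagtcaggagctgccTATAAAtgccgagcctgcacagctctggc
MTAP (0.00973 FPKM), which encodes an enzyme of methionine salvage, lies on the plus strand at chr9:21802486-21802635, and STK11 (0.0671 FPKM), which encodes the kinase LKB1, on the plus strand at chr19:1205628-1205777. Capitals mark CpG, which occurs 9 times in the bases shown for MTAP and 21 times in those for STK11, against 0 for KRT10 and 3 for S100A9.
MTAP: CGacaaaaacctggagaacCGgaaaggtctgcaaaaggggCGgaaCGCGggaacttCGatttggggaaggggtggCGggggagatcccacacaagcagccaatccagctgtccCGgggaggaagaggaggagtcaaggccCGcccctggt
STK11: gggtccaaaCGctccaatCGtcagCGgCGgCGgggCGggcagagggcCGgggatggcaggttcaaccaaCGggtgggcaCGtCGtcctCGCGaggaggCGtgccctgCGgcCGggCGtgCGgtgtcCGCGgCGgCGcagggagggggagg

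Over the 9701 protein-coding genes with exactly 1 start site in the sequence table, TATAAA on the gene's strand within 50 bases before the start was found in 3.81%. The share was 9.90% (29 of 293) among genes above 100 FPKM, 1.94% among genes from 1 to 100 FPKM, 6.18% from 0 to 1 FPKM and 8.83% among genes at 0. It was thus lowest in the middle of the range. On either strand, with the complement TTTATA also read, the shares kept this order, at 10.6%, 2.27%, 6.95% and 9.76%. Of the 8 S100 genes above 100 FPKM with 1 listed start, 4 held TATAAA, and of the 3 such keratins 1 did. The median number of CpG in the 250 bases before the start was 5 for genes at 0, 12 from 0 to 1 FPKM, 22 from 1 to 100 FPKM and 23 above 100 FPKM. The 14 tumor suppressors of the list with 1 listed start had a median of 24.5 CpG and none held TATAAA. A match of letters is no evidence of a used site.

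The epithelial identity of this carcinoma line was visible in the junction genes. EPCAM (chromosome 2, 47572297 to 47614740), an epithelial adhesion molecule, was at 66.3 FPKM (63.3 to 69.6). CDH1 (chromosome 16, 68771195 to 68869440), which encodes E-cadherin, was at 32.6 FPKM (31.3 to 33.8). Both lay above the level of most genes, at rank 873 and rank 1980 of 29689. Of the 24 junction genes, 22 (91.7%) were above 1 FPKM, against 66.3% of all protein-coding genes. Their median was 43.0 FPKM, against 3.51 FPKM over protein-coding genes. The desmosome genes JUP (248 FPKM), PKP1 (183 FPKM) and DSP (170 FPKM) were among the highest. P-cadherin (CDH3), the cadherin of the basal mammary layer, was at 86.3 FPKM and thus above CDH1. The tight junction genes OCLN (0.916 FPKM) and CLDN3 (0.702 FPKM) were the members at or below 1 FPKM.

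All 14 epithelial transcription and splicing factors were above 1 FPKM, with a median of 19.2 FPKM, against 3.51 FPKM over protein-coding genes. Among them the splicing factor ESRP2 was at 49.6 FPKM, KLF5 at 38.4 FPKM and OVOL2 at 26.1 FPKM. OVOL1 was the lowest at 2.81 FPKM. The mesenchymal genes were mixed. S100A4 (138 FPKM), FN1 (124 FPKM), which encodes fibronectin, and VIM (54.1 FPKM), which encodes vimentin, were abundant, and of the transcription factors known for epithelial-mesenchymal transition TWIST1 was at 25.7 FPKM, SNAI2 at 16.4 FPKM and SNAI1 at 14.5 FPKM. ZEB2 was at 1.35 FPKM and ZEB1 at 0.0380 FPKM, the lowest of the 14 genes, and N-cadherin (CDH2) was at 0.440 FPKM.

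The mammary gland has a luminal layer, whose cells make milk and carry the hormone receptors, and a basal layer of myoepithelial cells, which contract and rest on the basement membrane. Of the 26 basal and myoepithelial genes, 20 (76.9%) were above 1 FPKM, against 66.3% of all protein-coding genes, with a median of 34.4 FPKM. Beside the keratins these included the hemidesmosome and basement membrane genes LAMB3 (273 FPKM), ITGB4 (142 FPKM) and COL17A1 (47.4 FPKM), TRIM29 (220 FPKM), FOXC1 (51.0 FPKM) and TP63 (17.8 FPKM, 16.9 to 18.7), the transcription factor of basal epithelia. The contractile genes of myoepithelial cells were at the other end: ACTA2, which encodes smooth muscle actin, was at 0.610 FPKM, MYLK at 0.452 FPKM and CNN1 at 0.129 FPKM, while TAGLN, another smooth muscle gene, was at 2.84 FPKM (2.43 to 3.28). SOX10 was at 0.186 FPKM, OXTR, the oxytocin receptor gene, at 0.0819 FPKM and THY1 at 0.

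Of the 21 luminal genes in the table, 12 (57.1%) were above 1 FPKM, against 66.3% of all protein-coding genes, and the median was 1.10 FPKM. The highest were KRT19, KRT8 and the zinc transporter gene SLC39A6 (35.4 FPKM). GATA3 (16.5 FPKM, 15.4 to 17.6) and XBP1 (23.9 FPKM), which are transcription factors of luminal cells, were present, as were CA12 (12.1 FPKM), AGR2 (11.6 FPKM) and MUC1 (7.80 FPKM). FOXA1, which opens chromatin for the estrogen receptor, was at 0.562 FPKM, SPDEF at 0.0629 FPKM, and ELF5, the factor of milk-forming progenitors, at 0.0486 FPKM. Of the 6 milk protein genes in the table, PAEP, a lipocalin gene, was at 17.3 FPKM and the next genes, SCGB1D2 and PIP, at 0.372 and 0.204 FPKM, while LALBA and BTN1A1 were at 0.0479 and 0.0206 FPKM. Basal keratins and laminins were thus found beside luminal keratins and GATA3, while 3 of the 4 contractile genes named and 5 of the 6 milk protein genes were below 1 FPKM.

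The suprabasal keratins were accompanied by some genes of epidermal differentiation. KRTDAP (281 FPKM), CALML5 (212 FPKM) and SBSN (83.6 FPKM), which are expressed in differentiating keratinocytes, were highest, and CNFN (47.1 FPKM) and SPRR1B (40.9 FPKM) encode proteins of the cornified envelope. IVL (involucrin) was at 3.96 FPKM. LOR (loricrin) at 0.726 FPKM, FLG (filaggrin) at 0.154 FPKM and FLG2 at 0 were low. Of the 22 genes, 13 (59.1%) were above 1 FPKM, against 66.3% of all protein-coding genes, with a median of 2.48 FPKM. Of the 14 late cornified envelope genes, 11 were listed at 0 and LCE3D was highest at 1.46 FPKM, ahead of LCE3E (0.195 FPKM) and LCE2C (0.0970 FPKM). The 17 keratin associated protein genes, which belong to the hair shaft, included 12 at 0, and KRTAP19-1 (2.49 FPKM), KRTAP13-2 (1.33 FPKM) and KRTAP19-5 (1.03 FPKM) were the members above 1 FPKM. The S100 genes, small calcium-binding proteins of which many lie beside the cornified envelope genes on chromosome 1, stood at the other end. Of the 17 in the table, 16 were above 1 FPKM, 11 were above 100 FPKM, the median was 309 FPKM, and 1 was at 0.

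**Figure D3:**
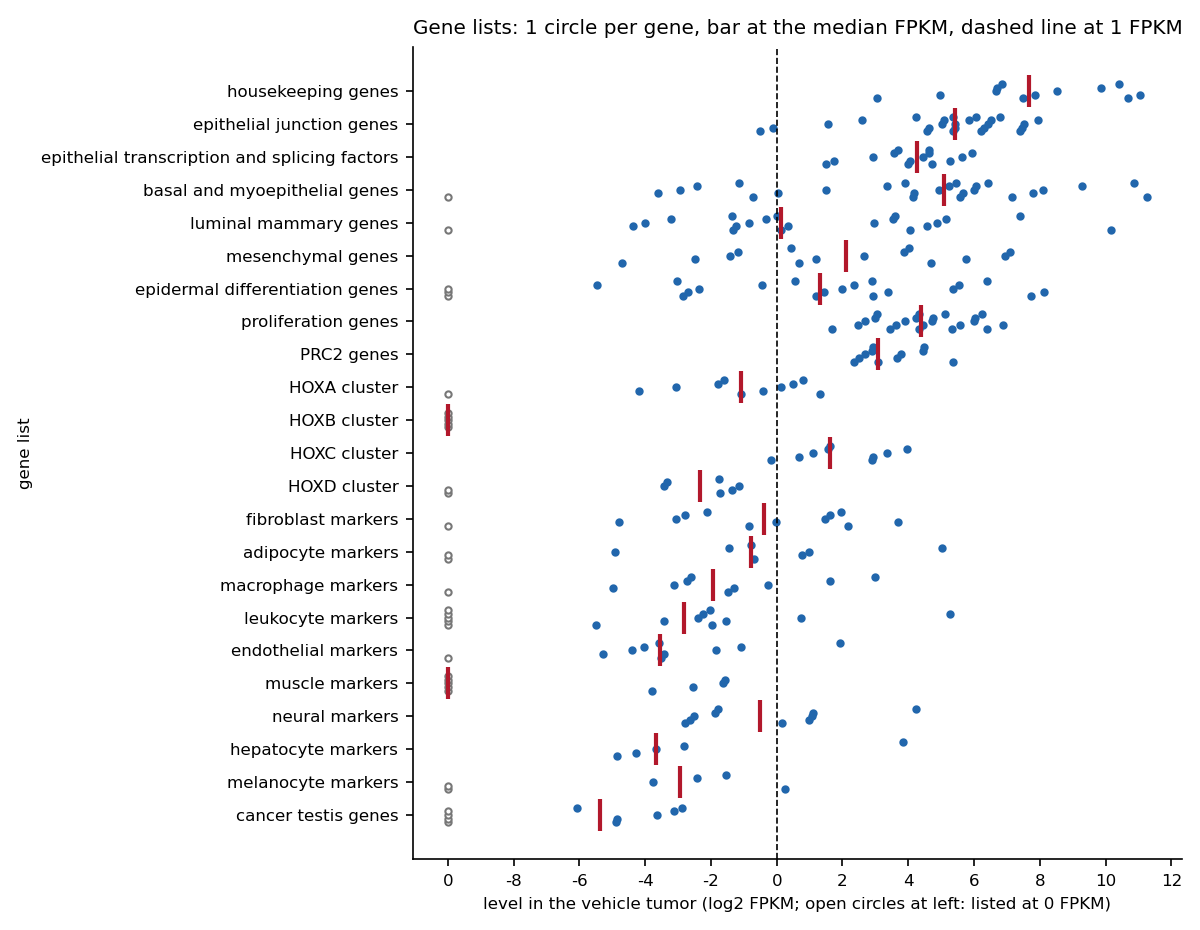
Levels of the genes of 23 lists in the vehicle tumor (horizontal axis, log2 FPKM), with 1 circle per gene, open circles for genes listed at 0 FPKM, a red bar at the median FPKM of the list and a dashed line at 1 FPKM. The epithelial junction list (median 43.0 FPKM) and the basal list (34.4 FPKM) lie to the right of the lists of other cell types, whose medians are all below 1 FPKM.

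TNBC is defined by the lack of the estrogen receptor, the progesterone receptor and of HER2 amplification. The level of the ERα gene ESR1 (chromosome 6, 151977826 to 152450754) was 0.792 FPKM (0.634 to 0.979), about 86 fragments. PGR (chromosome 11, 100900355 to 101000544), the progesterone receptor gene, was listed at 0, which at this depth allows up to 0.0137 FPKM. ESR2, the gene of the other estrogen receptor, was at 0.131 FPKM. ERBB2, which encodes HER2, was at 30.4 FPKM (29.2 to 31.6), at rank 2134 of all genes.

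Over the 46 hormone and other nuclear receptors in the table, 24 (52.2%) were above 1 FPKM, against 66.3% of all protein-coding genes. The median was 1.40 FPKM, and 8 were at 0. ESRRA, an orphan receptor related to ERα that serves energy metabolism, was highest at 83.3 FPKM (80.4 to 86.2). The retinoic acid receptor gene RARG, the isoform known from skin, was at 48.5 FPKM and its partner RXRA at 42.4 FPKM, while RARA was at 10.2 FPKM and RARB at 0. The vitamin D receptor VDR was at 9.77 FPKM and the glucocorticoid receptor NR3C1 at 4.31 FPKM. Receptors known from liver or steroid glands differed. HNF4A was at 0.143 FPKM and NR5A1, NR1I2 and NR0B1 were at 0, while NR1H3 was at 14.7 FPKM and PPARA at 1.81 FPKM.

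Receptor tyrosine kinases carry growth signals across the membrane. Of the 55 in the table, 28 (50.9%) were above 1 FPKM, against 66.3% of all protein-coding genes. The median was 1.23 FPKM, and 4 were at 0. DDR1, a receptor for collagen, stood apart at 262 FPKM (259 to 266), and PTK7 (61.9 FPKM), EPHA2 (48.6 FPKM) and EPHB4 (40.0 FPKM) followed. EGFR (chromosome 7, 55086710 to 55279321), a marker of basal-like carcinoma, was at 30.6 FPKM (29.8 to 31.5). Its interval overlapped that of ERBB2, so the order of these receptors is not resolved by this library. ERBB3 was at 12.2 FPKM and ERBB4 at 0.0196 FPKM.

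Other receptors of this class showed a wide spread. IGF1R (13.1 FPKM) was present, whereas INSR, the insulin receptor gene, was at 0.239 FPKM (0.169 to 0.328). AXL was at 11.3 FPKM, MST1R at 21.7 FPKM, MET at 3.81 FPKM, and FGFR1 at 7.30 FPKM. ROS1, an orphan receptor that few adult tissues express, was at 3.99 FPKM (3.67 to 4.33). The vascular and stromal receptors KDR (0.470 FPKM), FLT1 (0.0841 FPKM), PDGFRB (0.146 FPKM) and PDGFRA (0.0363 FPKM) and the neurotrophin receptor NTRK3 (0.00596 FPKM) were low, and EPHA3, EPHA5, EPHA8 and INSRR were at 0.

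Ligands of the EGF family differed in level. EREG (19.7 FPKM), AREG (13.9 FPKM), HBEGF (9.66 FPKM) and TGFA (6.16 FPKM), which bind EGFR, were highest. Of the 10 members in the table, 7 (70%) were above 1 FPKM, a share close to the 66.3% of all protein-coding genes. EGF itself was at 0.159 FPKM and NRG2, a ligand of ERBB3 and ERBB4, was the lowest at 0.112 FPKM. NRG1 was at 2.71 FPKM.

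**Figure D4:**
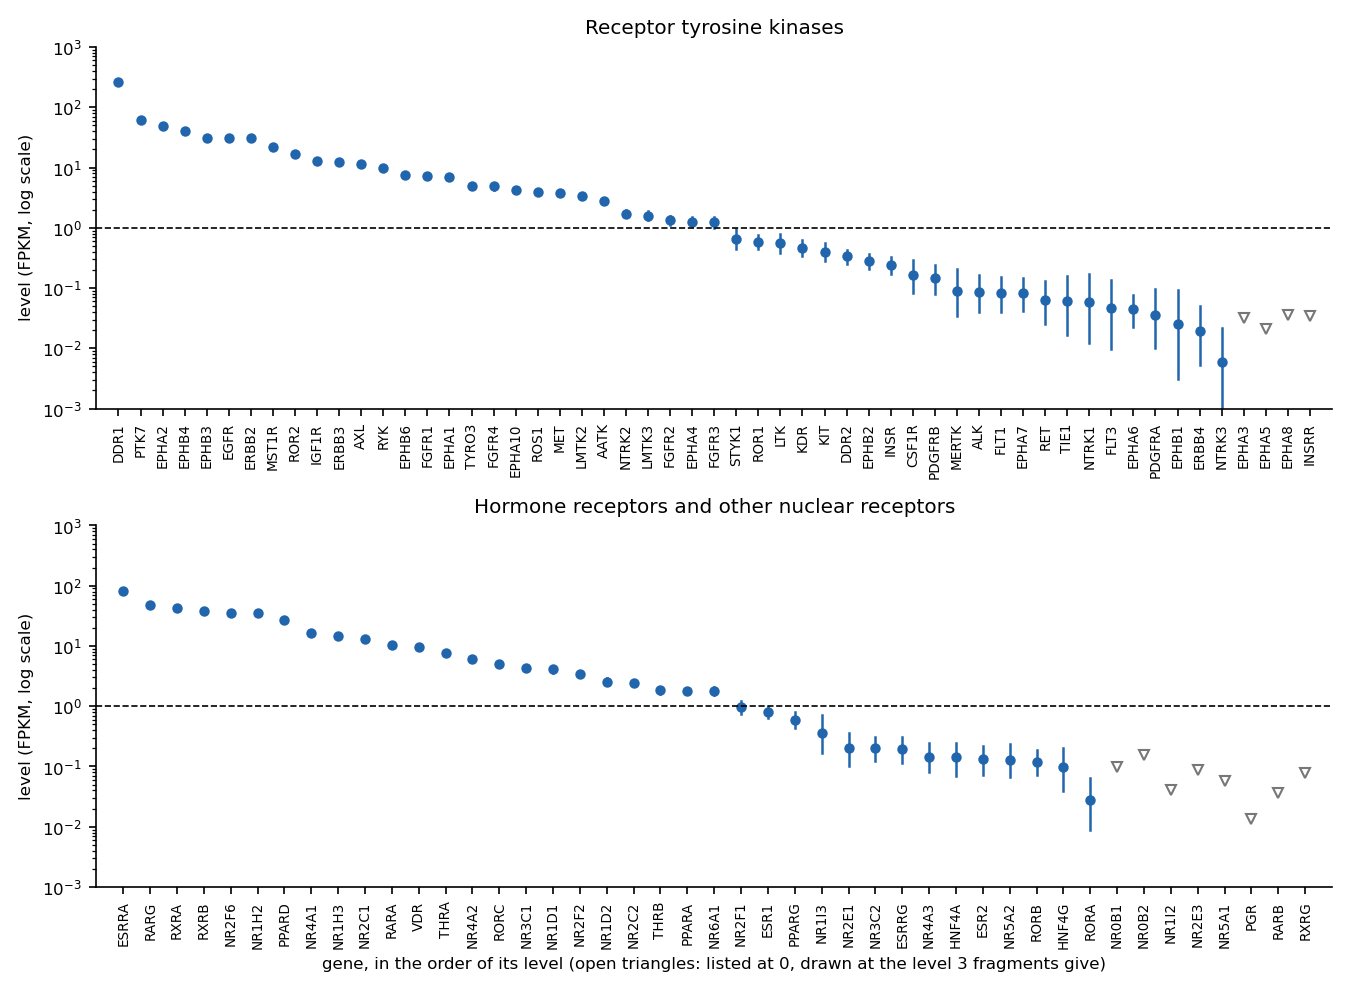
Levels of the receptor tyrosine kinases (top) and of the hormone and other nuclear receptors (bottom) in the vehicle tumor (vertical axes, FPKM, log scale), ordered by level, with 1 receptor left out. Circles are FPKM values, vertical lines exact Poisson 95% intervals cut at 0.001 FPKM, open triangles genes listed at 0, and dashed lines mark 1 FPKM; DDR1 leads the kinases at 262 FPKM and ESRRA the nuclear receptors at 83.3 FPKM, while PGR is among the genes at 0.

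Of the 43 oncogenes listed, 39 (90.7%) were above 1 FPKM, against 66.3% of all protein-coding genes. Their median was 9.51 FPKM, against 3.51 FPKM over protein-coding genes. NOTCH3 (86.7 FPKM), HRAS (82.1 FPKM), the mitotic kinase gene AURKB (81.1 FPKM) and MYC (79.7 FPKM, 77.5 to 81.9) were highest. The related gene NRAS was at 13.5 FPKM. Among the D-type cyclins, which activate CDK4 and CDK6, CCND1 was at 40.8 FPKM and CCND3 at 19.8 FPKM, while CCND2 was at 0.0552 FPKM (0.0192 to 0.114), about 6 fragments, and the lowest of the list. CCNE1, the cyclin partner of CDK2, was at 6.30 FPKM and CCNE2 at 1.31 FPKM. The anti-apoptotic genes MCL1 (45.7 FPKM) and BCL2L1 (28.9 FPKM) were abundant and BCL2 was at 0.391 FPKM. TERT, the catalytic subunit gene of telomerase, was at 0.993 FPKM and MYCN at 0.572 FPKM.

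The targets after which the inhibitors of the other arms are named, CDK2 and EZH2, were moderately expressed in the vehicle tumor. Dinaciclib also inhibits CDK1, CDK5 and CDK9, and of these CDK1 was at 19.05 FPKM. CDK2 was at 7.38 FPKM and EZH2, the methyltransferase of Polycomb repressive complex 2 (PRC2), at 7.69 FPKM. All 11 PRC2 genes in the table were above 1 FPKM, against 66.3% of all protein-coding genes. They ranged from SUZ12 at 5.08 FPKM to PHF1 at 41.2 FPKM. RBBP7 was at 22.1 FPKM, RBBP4 at 21.8 FPKM, EED at 7.52 FPKM and EZH1 at 8.46 FPKM. All 22 proliferation genes were above 1 FPKM as well, with a median of 21.04 FPKM, against 3.51 FPKM over protein-coding genes. The replication helicase gene MCM7 (117 FPKM), the mitotic activator CDC20 (84.7 FPKM) and PCNA (76.4 FPKM) were highest, MKI67 was at 8.35 FPKM and BIRC5 was lowest at 3.19 FPKM.

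Of the 26 tumor suppressors, 19 (73.1%) were above 1 FPKM, against 66.3% of all protein-coding genes, and the median was 3.15 FPKM. CDKN1A, which encodes the CDK inhibitor p21, was highest at 71.7 FPKM, and TSC2 was at 23.9 FPKM and CDKN1B at 17.9 FPKM. RB1 was at 3.79 FPKM, BRCA1 at 1.57 FPKM (1.36 to 1.80) and BRCA2 at 1.29 FPKM. INPP4B, a phosphatase gene known for loss in basal-like carcinoma, was at 0.6004 FPKM. CDKN1C, the gene of the CDK inhibitor p57, was at 0.232 FPKM, about 8 fragments. The other members below INPP4B were CDKN2A (0.279 FPKM, about 5 fragments), CDKN2B (0.0305 FPKM, about 2 fragments) and MTAP (0.00973 FPKM, about 1 fragment) on chromosome 9, and STK11 (0.0671 FPKM, about 7 fragments) on chromosome 19. CDKN2A and CDKN2B encode inhibitors of CDK4 and CDK6.

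Read in chromosomal order, the chromosome 9 genes opened the longest silent stretch of the library. Silent stretches were runs of 10 or more neighboring protein-coding genes of the table that were all below 0.1 FPKM, a level under which 3041 of 16890 placed genes (18.0%) fell. Exactly 1 such stretch was found, from CDKN2B to LINGO2 (chromosome 9 of GRCh37, 22002902 to 29213599), with 11 genes over 7.21 megabases. The next longest runs held 9 genes. The members were CDKN2B, DMRTA1, ELAVL2, TUSC1, CAAP1, PLAA, IFT74, EQTN, MOB3B, C9orf72 and LINGO2, of which 5 were listed at 0.

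The stretch holds genes of different kinds. ELAVL2 and LINGO2 are known from neurons and EQTN from sperm. PLAA, a ubiquitin-binding factor, IFT74, a subunit of the transport machinery of cilia, CAAP1, an apoptosis regulator, and C9orf72 are expressed in many tissues. PLAA was at 0, which allows up to 0.0378 FPKM, and IFT74, CAAP1 and C9orf72 were at 0.0276, 0.0213 and 0.0124 FPKM, about 2, 1 and 1 fragments. With MTAP and CDKN2A, which adjoin it, the run held 13 genes from 21802635 to 29213599, over 7.41 megabases, and about 17 fragments in all. On one side, KLHL9 was at 5.86 FPKM, PTPLAD2 at 0.114 FPKM (0.0658 to 0.187) and FOCAD at 4.34 FPKM. On the other, the next protein-coding genes of the table were ACO1 at 3.69 FPKM, DDX58 at 1.07 FPKM, TOPORS at 3.66 FPKM, TOPORS-AS1 at 0.596 FPKM and NDUFB6 at 22.2 FPKM. These neighbors were chosen after the values had been seen, as were those of STK11. The type I interferon genes of this chromosome arm were not analysed here. The state of the DNA was not measured, and it was not tested why the genes were silent.

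STK11 (chromosome 19, 1177557 to 1228430) stood in a dense and mostly active neighborhood. The gene before it, SBNO2, was at 59.7 FPKM, with GPX4 at 262 FPKM and POLR2E at 85.1 FPKM next to that. C19orf26, which adjoins it, was at 0.0140 FPKM, and beyond this ATP5D was at 127 FPKM and MIDN at 35.5 FPKM. The interval of STK11 (0.0290 to 0.149 FPKM) lay far below its active neighbors. The levels of STK11 and C19orf26 thus differed from those of these neighbors by more than the counting error.

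**Figure D5:**
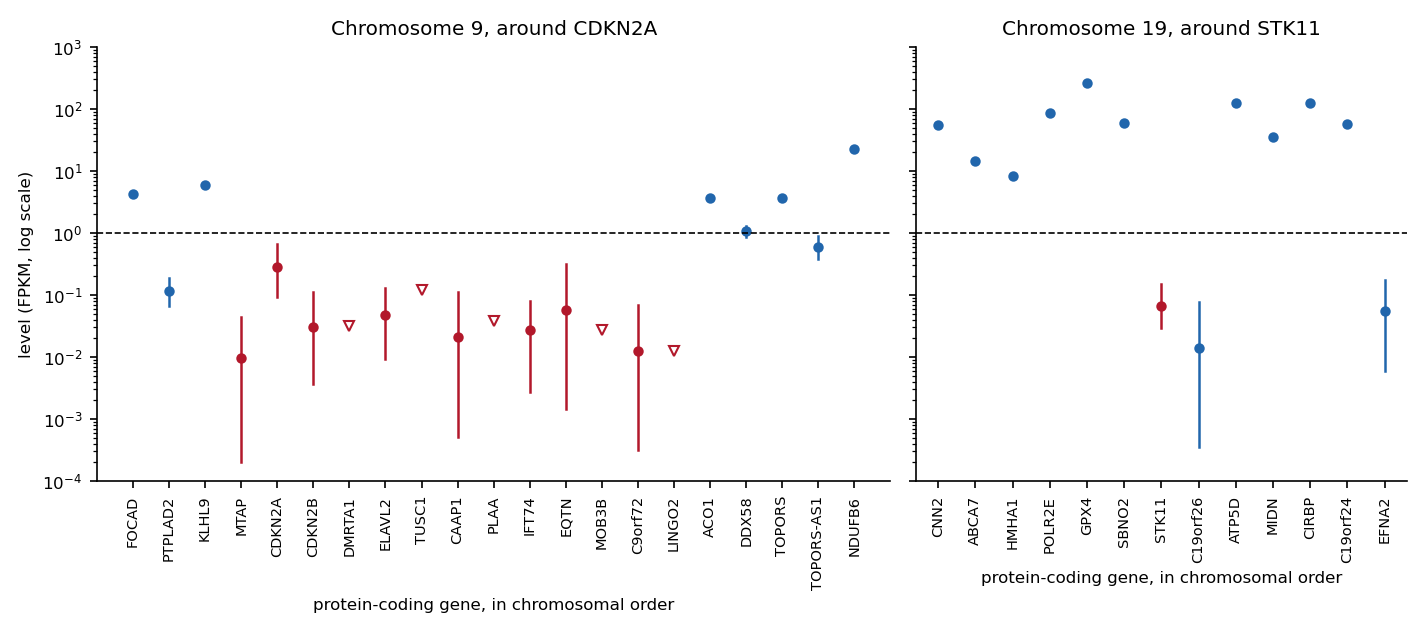
Levels in the vehicle tumor (vertical axis, FPKM, log scale) of protein-coding genes in chromosomal order, from FOCAD to NDUFB6 on chromosome 9 (left; MTAP to LINGO2 in red) and around STK11 on chromosome 19 (right; STK11 in red). Circles are FPKM values, vertical lines exact Poisson 95% intervals, open triangles genes listed at 0 drawn at the level of 3 fragments, and the dashed line marks 1 FPKM; none of the 13 red genes at left exceeds 0.279 FPKM.

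The HOX genes, which give cells their position along the body axis, differed by cluster. In the HOXC cluster on chromosome 12, 8 of 9 genes (88.9%) were above 1 FPKM, against 66.3% of all protein-coding genes. HOXC10 (15.6 FPKM, 14.3 to 17.0), HOXC9 (10.2 FPKM) and HOXC13 (7.63 FPKM) were highest, and HOXC5 was lowest at 0.891 FPKM. In the HOXA cluster, 4 of 11 genes passed 1 FPKM, with HOXA10 at 2.51 FPKM, HOXA9 at 1.73 FPKM and HOXA5 at 1.40 FPKM, and HOXA4 was at 0. None of the 8 HOXD genes in the table did, and HOXD13 was highest at 0.452 FPKM, ahead of HOXD10 (0.389 FPKM) and HOXD8 (0.2998 FPKM). HOXB4, HOXB6, HOXB8, HOXB9 and HOXB13, the HOXB genes in the table, were listed at 0, and the other 5 were not analysed here.

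Families that serve single sensory, germ or immune cell types were near silent. Of the 94 olfactory receptor symbols, 78 were at 0 and 1, the pseudogene OR7E91P, was above 1 FPKM at 2.98 FPKM, ahead of OR5E1P (0.514 FPKM) and OR7E14P (0.294 FPKM). None of the 20 bitter taste receptors was above 1 FPKM, and TAS2R5 (0.725 FPKM), TAS2R15 (0.642 FPKM) and TAS2R14 (0.609 FPKM) were highest. The 10 cancer testis genes in the table reached 0.136 FPKM at most, in MAGEA10, with MAGEA3 at 0.114 FPKM, PAGE5 at 0.0804 FPKM and SSX1 at 0. None of the 29 immunoglobulin segments passed 1 FPKM, with IGLVIVOR22-1 (0.7505 FPKM), IGLV5-52 (0.629 FPKM) and IGLV1-51 (0.596 FPKM) highest. Of the 18 T cell receptor segments, 13 were at 0, and TRAJ16 (1.99 FPKM) and TRBV20OR9-2 (1.00 FPKM) were highest, ahead of TRAJ54 (0.993 FPKM). Of the 5 beta defensins, which are antimicrobial peptides, DEFB1 (0.623 FPKM) and DEFB4A (0.314 FPKM) were above 0.

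Clustered protocadherins, adhesion genes of neurons, differed by cluster. None of the 15 genes of the alpha cluster was above 1 FPKM, with PCDHA4 highest at 0.363 FPKM, PCDHA2 at 0.215 FPKM and PCDHA3 at 0.147 FPKM. In the beta cluster 4 of 18 were, led by PCDHB14 (7.49 FPKM), PCDHB15 (2.38 FPKM) and PCDHB9 (1.82 FPKM). In the gamma cluster PCDHGC3 (7.89 FPKM) and PCDHGB2 (1.44 FPKM) were, followed by PCDHGA6 at 0.504 FPKM. The gamma and alpha genes share their last exons, so reads of one can count for another.

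Large families of intracellular and membrane proteins were spread over the range. For comparison, 66.3% of all protein-coding genes were above 1 FPKM, with a median of 3.51 FPKM. Of the 496 numbered zinc finger genes, 298 (60.1%) were above 1 FPKM, with a median of 1.53 FPKM. ZNF692 (66.9 FPKM), ZNF385A (45.0 FPKM) and ZNF768 (30.7 FPKM) were the highest of them. Of the 375 solute carriers, 197 (52.5%) were above 1 FPKM, and the glucose transporter SLC2A1 (343 FPKM), the amino acid transporter chain SLC3A2 (246 FPKM) and the mitochondrial ADP/ATP carrier SLC25A6 (242 FPKM) were highest. Of the 72 replication-dependent histone genes, 29 (40.3%) were above 1 FPKM, led by HIST3H2A (173 FPKM), HIST1H2BK (62.2 FPKM) and HIST1H2AC (22.2 FPKM). All 12 housekeeping genes were above 1 FPKM, from TPT1, EEF1A1 and GAPDH down to TBP at 8.23 FPKM.

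The list of proteases and their inhibitors was led by an inhibitor. Beside PI3, SLPI, another inhibitor of neutrophil elastase, was at 317 FPKM, and CST3, which encodes cystatin C, at 203 FPKM. SPINT1 (163 FPKM) and SPINT2 (74.0 FPKM) inhibit serine proteases of the cell surface, TIMP1 (122 FPKM) inhibits metalloproteinases, and SERPINB5, which encodes maspin, was at 146 FPKM. The lysosomal proteases CTSB (286 FPKM) and CTSD (273 FPKM) were of the same order. Of the metalloproteinases, MMP7, which epithelial cells make, was highest at 109 FPKM, followed by MMP14 (44.7 FPKM), MMP2 (31.8 FPKM) and MMP9 (20.0 FPKM). MMP3 was at 0.177 FPKM and MMP8, the collagenase of neutrophils, was lowest at 0.0585 FPKM. Over the list of 42 genes, 36 (85.7%) were above 1 FPKM, against 66.3% of all protein-coding genes, with a median of 18.6 FPKM.

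Antimicrobial and acute phase genes were divided. The subunits of calprotectin, S100A9 (1092 FPKM, 1071 to 1113) and S100A8 (743 FPKM), and psoriasin, S100A7 (309 FPKM), were among the most abundant transcripts, and LCN2 (89.1 FPKM), WFDC2 (77.8 FPKM) and the complement gene C3 (75.1 FPKM) followed. SAA1 was at 8.83 FPKM, S100A12 at 3.93 FPKM, CLU at 3.75 FPKM and RNASE7 at 1.67 FPKM. In all, 14 of the 24 genes in the table were at or below 1 FPKM, CFB at 0.5996 FPKM and LTF, the lactoferrin gene, at 0.160 FPKM among them, and HP and SAA4 were at 0.

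Among the secreted growth factors, FGFBP1, which releases fibroblast growth factors from the matrix, was at 213 FPKM, GRN, the progranulin gene, at 168 FPKM, VEGFB at 78.7 FPKM and VEGFA, the main angiogenic factor, at 45.3 FPKM. The activin chains INHBB (68.9 FPKM) and INHBA (37.8 FPKM), TGFB1 (33.2 FPKM), WNT10A (30.1 FPKM) and PTHLH (23.6 FPKM), which encodes parathyroid hormone-related protein, were also high. IGF2 was at 0.0640 FPKM, and IGF1 and FGF5 were at 0, and in all 29 of 44 genes (65.9%) were above 1 FPKM, a share close to the 66.3% of all protein-coding genes. Of the 27 matrix genes, 21 (77.8%) were above 1 FPKM, against the same 66.3%. After LAMB3 (273 FPKM), COL6A1 (142 FPKM) and FN1 (124 FPKM) were highest. COL1A1 was at 13.01 FPKM (12.3 to 13.7) while COL1A2, which encodes the other chain of the same collagen, was the lowest at 0.119 FPKM (0.0616 to 0.208), about 12 fragments.

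Among the 29 chemokines in the table, 12 (41.4%) were above 1 FPKM, against 66.3% of all protein-coding genes. The median was 0.417 FPKM, and 9 were at 0. CXCL1, a neutrophil attractant, was at 152 FPKM, CXCL16 at 50.3 FPKM and IL8 at 14.2 FPKM, with CCL20 at 12.1 FPKM. CXCL1, CXCL2 (6.21 FPKM) and CXCL3 (11.3 FPKM) have near-identical stretches, and their split is uncertain. CXCL9 and CXCL10, which interferon γ is known to induce, and CXCL12, a chemokine of stroma, were at 0, and CCL2 was at 0.0598 FPKM. Among 41 interleukins and colony stimulating factors, IL32 (57.6 FPKM), IL18 (51.6 FPKM) and IL1RN (17.1 FPKM), the natural blocker of interleukin 1, were highest. IL6, which many TNBC lines secrete, was at 0.234 FPKM, CSF2 at 0.152 FPKM, TNF at 1.67 FPKM, and EBI3, IL4 and IL9 were among the 7 genes at 0.

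Of 13 genes known from work on inflammatory breast carcinoma, 11 (84.6%) were above 1 FPKM, against 66.3% of all protein-coding genes. CD44 (151 FPKM) and EIF4G1 (98.2 FPKM) were among the highest, and RHOC, a small GTPase of cell movement, was at 49.9 FPKM. CAV1 was at 43.6 FPKM and ALDH1A1 at 7.58 FPKM. WISP3, a secreted factor known for loss in this carcinoma, was at 0, and PROM1 was at 0.343 FPKM.

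All 11 genes of class I antigen presentation in the table were above 1 FPKM, against 66.3% of all protein-coding genes. HLA-E (115 FPKM), TAPBP (80.2 FPKM) and B2M (56.8 FPKM) were highest and TAP2 lowest at 2.27 FPKM, with reads of the polymorphic HLA genes divided uncertainly. Of the 11 class II genes, 6 (54.55%) were above 1 FPKM. The invariant chain CD74 was at 48.2 FPKM, HLA-DRA at 9.82 FPKM and HLA-DRB1 at 5.38 FPKM, with the class II transactivator CIITA at 1.22 FPKM and HLA-DQA1 at 0.0109 FPKM.

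On the human reference, to which mouse reads may have added, the lists of markers of other cell types all had medians below 1 FPKM. All of these medians were thus below the 3.51 FPKM of protein-coding genes. The medians of the fibroblast (0.771 FPKM) and neural (0.708 FPKM) lists were above the 0.659 FPKM of all genes, and the others were below it. Of the 14 leukocyte markers, the T cell genes CD3D, CD3E, CD3G and CD8B were at 0, and PTPRC, which all leukocytes express, was at 0.0224 FPKM, about 3 fragments. GNLY, which encodes granulysin of cytotoxic cells, was at 38.2 FPKM (36.2 to 40.4), CD8A at 1.68 FPKM and CD4 at 0.344 FPKM. Of the 10 macrophage markers, CD14 (8.02 FPKM), ITGAM (3.07 FPKM) and MARCO (0.840 FPKM) were highest, CD68 was at 0.0318 FPKM and CD163 at 0. The endothelial list held ROBO4 at 3.79 FPKM and 9 genes at or below KDR (0.470 FPKM), with VWF at 0.276 FPKM, CDH5 at 0.0868 FPKM and EMCN at 0. The 3 erythroid genes in the table, HBA1, HBG2 and ALAS2, were at 0, as was MYOG among 9 muscle markers that reached 0.335 FPKM at most, in TNNT3, with ACTA1 at 0.320 FPKM and TTN at 0.171 FPKM.

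Several other lists held 1 gene far above their other members. FABP4, a fatty acid carrier of adipocytes, was at 32.6 FPKM (29.8 to 35.6), whereas CD36 was at 1.996 FPKM, LPL at 1.72 FPKM, PLIN1 at 0.625 FPKM and ADIPOQ and CIDEC at 0. NEFL, a neurofilament gene, was at 18.9 FPKM, while TUBB3 and NEFM were at 2.16 and 2.12 FPKM and OLIG2 was lowest at 0.146 FPKM. With SYP (1.99 FPKM) and STMN2 (1.13 FPKM), 5 of the 10 neural genes (50%) were above 1 FPKM, against 66.3% of all protein-coding genes. SERPINA1, the α1-antitrypsin gene, was at 14.3 FPKM (13.4 to 15.3), whereas the liver genes ALB, HNF4A and AHSG were at 0.0790, 0.143 and 0.0348 FPKM. The melanocyte genes PMEL (1.19 FPKM), MLANA (0.345 FPKM) and SOX10 (0.186 FPKM) were low and DCT and TYRP1 were at 0. Of the 12 fibroblast markers, 5 (41.7%) were above 1 FPKM. Their median was 0.771 FPKM, with COL1A1 (13.01 FPKM), LUM (4.53 FPKM) and COL3A1 (3.88 FPKM) highest and THY1 at 0. In the adipocyte, neural and liver lists the highest gene thus stood far above the rest of its list.

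Among noncoding transcripts, MIR205HG, the host gene of the epithelial microRNA miR-205, was at 93.1 FPKM, and MALAT1 and NEAT1, which are nuclear in most cells, were at 290 and 67.2 FPKM. The hypoxia-linked microRNA gene hsa-mir-210 was at 46.1 FPKM and MIR210HG, its host, at 38.3 FPKM. Both symbols cover the same locus, so the reads of one can count for the other. The noncoding genes other than hsa-mir-210 and hsa-mir-6723 were chosen after their values had been seen. Of 29 microRNA symbols in the table, 14 were above 1 FPKM, and hsa-mir-940, at 7.24 FPKM, was the next after these.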

How the data were processed

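RNA from tumor tissue had been isolated with the RNeasy Mini Kit and sequenced by Novogene. The submitters' processing notes name CASAVA and STAR, with hg19 (GRCh37) as the reference. The counting tool, gene model and strand setting are not given in the sources used here, so reads of overlapping and antisense genes cannot be told apart. The authors deposited log2 FPKM values for 29689 genes in 3 columns, of which the vehicle column was described, and −9 was taken as an FPKM of 0. Symbols were matched to GENCODE 44 on GRCh37 for 20141 genes, 1424 of them through older symbols. The FPKM of 1 fragment was recovered from weakly expressed genes (tolerance 1%, up to 5 fragments), a step checked on simulated data, and gave 16.8 M fragments (M, 1000000). Per-gene fragment numbers used the longest transcript, on which 61.6% of 2749 weakly expressed genes fell on whole numbers, against 41.7% of 2514 for the union of exons, a choice made after seeing this.

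The 45 gene lists and 19 name patterns were chosen with earlier results of these data known, and 96 of the 831 distinct listed genes were not analysed here. The genes named are the 25 highest outside mitochondrially encoded, ribosomal protein and small noncoding genes, members of the lists with at least the 3 highest and the lowest, and the 3 highest of a pattern. A few genes that this rule would name are not reported here. Genes named otherwise are said to be chosen after their values were seen. RefSeq start sites were read for the 9701 protein-coding genes with 1 listed start. With 1 library no error between tumors could be estimated. Alternative expression minimums, gene sets, lengths and treatments of 0 were tried. Analyses used Python 3.11.15, numpy 2.4.6, pandas 2.3.3, scipy 1.17.1 and matplotlib 3.10.9.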

Additional observations from a re-analysis of the deposited data

How the results depend on the processing

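The values above rest on 1 library without a replicate, and what another vehicle tumor would show is not known. A change of the expression minimum gave 20714 genes above 0.1 FPKM and 6251 above 8 FPKM, against 13476 above 1 FPKM. At 8 FPKM, 273 of the 735 distinct list members in the table passed, against 444 at 1 FPKM. Over protein-coding genes alone 1418 were listed at 0, against 5853 over all genes. The share of the 100 highest genes fell from 45.8% of the summed FPKM to 32.5% without mitochondrially encoded genes, 24.0% without these and the ribosomal protein genes, and 28.6% when fragments were summed in place of FPKM, and the keratin share of 2.47% became 3.15%, 3.92% and 2.07%. When every gene of a stretch had to be listed at 0, 0 silent stretches were found in place of 1. Of 43 list medians, 21 did not move and 22 were higher when members at 0 were left out (the HOXB and erythroid lists had no other member), and each of 10 ranks recomputed over protein-coding genes stayed within 1.5 times. No paired analysis was possible because the vehicle group holds 1 library and no test was made. Depth limits the lowest values, since levels below about 0.1 FPKM rest on a few fragments.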
